A study of Capra hircus with 36 samples.

Results

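The comparison was between goats of a high and a low altitude, with the 6 tissues of each goat averaged so that each goat counts once. A large difference in a few tissues can also move such an average, so the called miRNAs are also described by tissue. All 36 small RNA libraries of the series were used, 18 per altitude. They come from 3 Tibetan Goats, kept at about 3000 m, and 3 Chuandong White Goats, kept at about 600 m, all adult females of about 3 years. From each goat the spleen, liver, kidney, heart, lung and a skeletal muscle were sampled. The goat of a library was read from the altitude and replicate number in its title. That a number marks the same goat in every tissue is assumed. By the methods of the study the Tibetan goats were nomadic stock and the low-altitude goats were reared at home, so breed, rearing and altitude cannot be told apart in these goats, and "altitude" stands below for all of them together. Library totals ran from 7312782 to 14407748 counts at high altitude and from 7108635 to 13537937 at low altitude, with medians of 10513605.5 and 10343876.5. At these totals 3 counts equal 0.208 to 0.422 RPM (reads per 1e+06 counts of the library), which limits what a count of 0 can show, for counting error only.

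MicroRNAs are short RNAs that guide Argonaute proteins to messenger RNAs, mostly through pairing of the seed near their 5′ end. Each precursor hairpin gives a 5p and a 3p arm, and usually 1 of them is loaded and kept while the other is degraded. Many miRNAs are transcribed together from clusters. Low oxygen acts on miRNAs through hypoxia-inducible factors, of which miR-210 is the best known target, and blood cells, endothelium and muscle each carry miRNAs of their own.

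The level of a miRNA in a goat was taken as the mean of log2(RPM + 1) over its 6 tissues, and the 3 high-altitude goats were compared with the 3 low-altitude goats with limma over all 1391 miRNAs. At a Benjamini-Hochberg adjusted p under 0.05, 3 miRNAs were lower at high altitude (0.216% of those tested) and 0 were higher (0%). The 3 were miR-409-5p, miR-16b-5p and miR-509-3p. At an unadjusted p under 0.05 the same fit had 83 lower and 45 higher. For miRNAs higher at high altitude, edgeR on the counts summed per goat also called 0, whereas DESeq2 on these sums called 29. The goat means of the altitudes did not overlap for 120 miRNAs that were lower at high altitude (8.63%) and for 89 that were higher (6.4%), together 15.03% of all miRNAs and 27.92% of those that averaged at least 10 RPM. Without any altitude difference, a miRNA without ties would show no overlap with a probability of 0.1, by the 20 assignments of the goats. MiRNAs of a goat are not independent, so these shares are a description without a test. The balance of directions was not stable, with 128 higher and 118 lower under DESeq2 size factors, 110 and 105 without lung, and 153 and 141 without high-altitude replicate 1. It leaned to lower with 129 higher and 256 lower without high-altitude replicate 2, and with 124 and 207 without low-altitude replicate 1. Of the variance of the goat means over all miRNAs, 34.9% lay between the altitudes (exact permutation test over the goats, one-sided, p = 0.1, the smallest that 20 assignments allow). Part of such a share arises without any altitude difference. The count of calls rests on few goats: without any 1 of the 6 goats, 0 or 1 miRNA was called. It rests as much on how many miRNAs are tested, with 18 calls, 13 lower and 5 higher, among the 537 miRNAs that averaged at least 1 RPM.

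**Figure D1:**
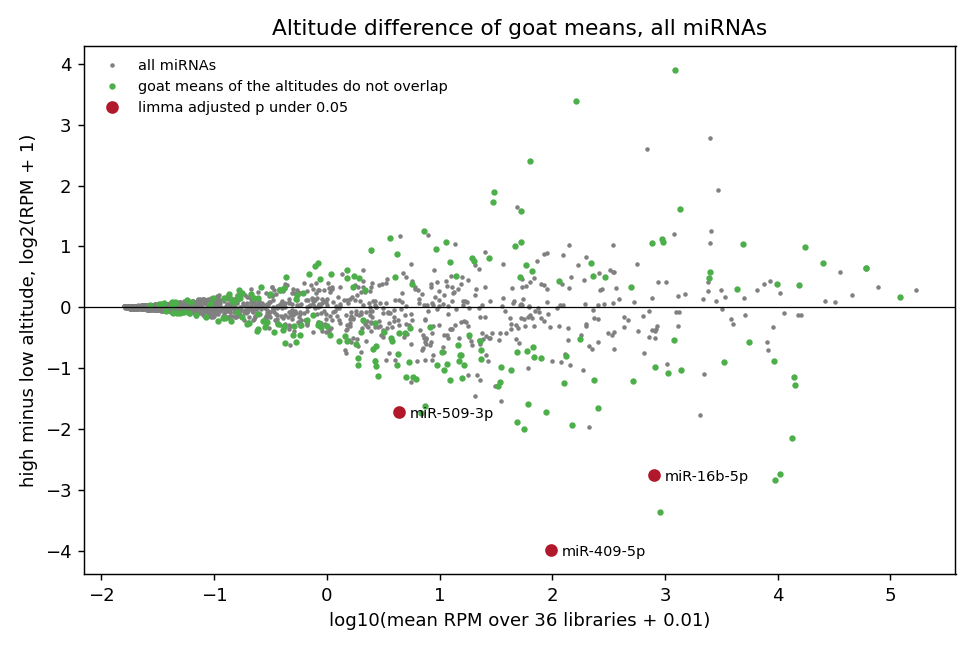
Difference of the goat means between altitudes (vertical axis, log2(RPM + 1), high minus low) against the mean level over 36 libraries (horizontal axis, log10 scale) for 1391 miRNAs. The 3 miRNAs past the threshold of limma all lie below 0, and the 209 miRNAs whose goat means do not overlap lie on both sides.

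The lowest p belonged to miR-409-5p, a miRNA of the imprinted DLK1-DIO3 cluster. On the log2(RPM + 1) scale the high-altitude goats had means of 2.32, 2.52 and 2.83, and the low-altitude goats 6.81, 6.73 and 6.11. All 3 high-altitude goats lay below all 3 low-altitude goats. The difference was -3.99 (standard error 0.33, limma adjusted p = 0.00357), and it was negative under all 31 alternatives and past the threshold in 25 of them. By tissue, high-altitude libraries averaged 3.54 ± 1.11 RPM (SD, n = 3) in heart against 88.5 ± 62.3 RPM at low altitude. In liver they averaged 6.91 ± 3.78 against 340 ± 56.2 RPM. In muscle the averages were 1.43 ± 0.235 and 126 ± 9.86 RPM. Lung did not show the difference, with 9.01 ± 3.04 RPM at high altitude and 7.45 ± 0.701 RPM at low altitude. The low-altitude lung libraries were thus at the level of the high-altitude goats, and the altitudes did not overlap in the other 5 tissues. The opposite arm, miR-409-3p, singled out after its values were seen, did not follow: its high-altitude goats had 5.88, 7.23 and 6.14 and its low-altitude goats 6.04, 5.64 and 6.41. Its difference was 0.39 (standard error 0.43, limma adjusted p = 0.738). The mature sequence listed for miR-409-5p in the primer list of the study, with the seed (bases 2 to 8) in capitals, shows the arm that the difference concerns.
miR-409-5p: aGGTTACCcgagcaactttgcat

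The goat means of miR-16b-5p, of the miR-15/16 family that restrains the cell cycle, were 7.15, 7.61 and 6.69 in the high-altitude group, against 9.64, 9.78 and 10.31. The difference was -2.76 (standard error 0.34, limma adjusted p = 0.0325). Part of it comes from 3 libraries with a count of 0, 1 in each high-altitude goat: liver of replicate 1, kidney of replicate 2 and spleen of replicate 3. The other high-altitude libraries of these tissues had 1697 to 6830 counts. Over heart, lung and muscle alone, where no library was at 0, the goat means of miR-16b-5p were 8.63, 8.96 and 8.09, against 9.45, 9.24 and 9.86 in the low-altitude group. The groups did not overlap there either, but the difference was -0.96 (standard error 0.29, limma adjusted p = 0.498, an alternative chosen after seeing the data). The call of miR-16b-5p was also lost without heart (-3.02), kidney (-2.455), liver (-2.39) or spleen (-2.36). In the tissues with zeros the other high-altitude libraries still lay below every low-altitude library, with at most 618.7 RPM in liver, 169.8 in kidney and 816.4 in spleen against at least 909.3, 284.6 and 1444 RPM.

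Levels of miR-509-3p were low, with means of 0.00, 0.20 and 0.25 in the high-altitude goats against 2.01, 1.64 and 1.99. The difference was -1.73 (standard error 0.23, limma adjusted p = 0.0405). It came mostly from heart, where counts were 0, 0 and 5 against 489, 105 and 183, and from liver, where they were 0, 8 and 0 against 126, 172 and 353. In kidney all 6 libraries were at 0, and in lung no library had more than 3 counts. This miRNA was called on the average of 6 tissues while most of its difference stood in 2 of them.

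**Figure D2:**
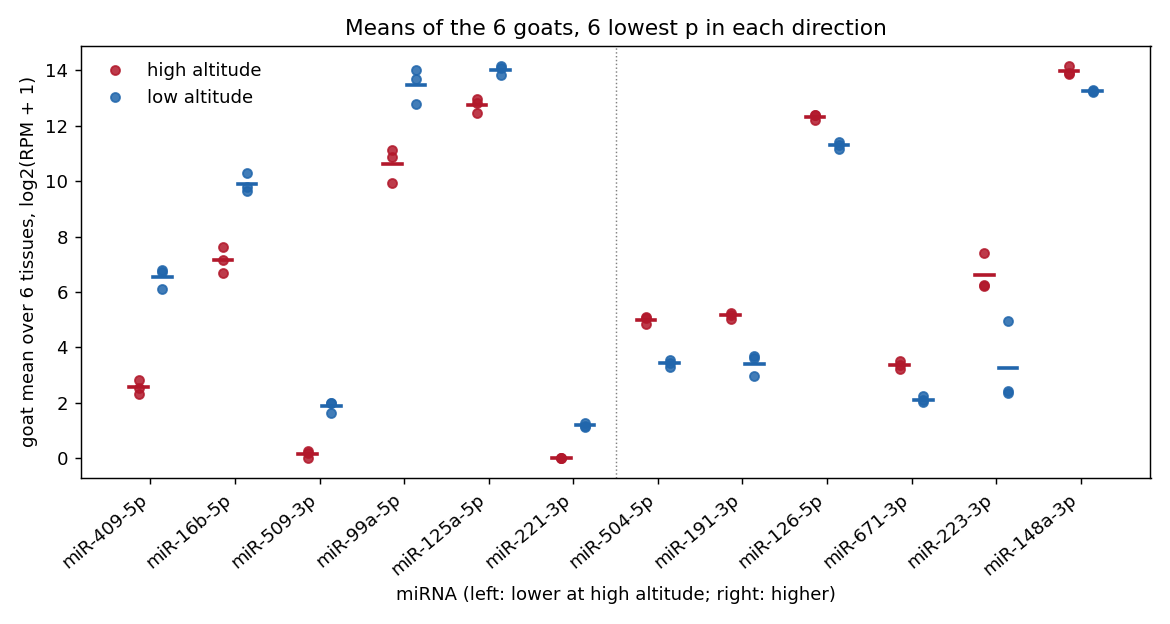
Mean over 6 tissues of log2(RPM + 1) for each of 3 high-altitude (red) and 3 low-altitude (blue) goats (points; lines are means) for the 6 miRNAs with the lowest p in each direction. In all 12 miRNAs the points of the altitudes do not overlap, and 3 of them, miR-409-5p, miR-16b-5p and miR-509-3p, were past the threshold.

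Another 3 miRNAs had the lowest p among those lower at high altitude without being called. The goat means of miR-99a-5p were 10.86, 9.92 and 11.13 in the high-altitude group against 14.00, 13.68 and 12.77, a difference of -2.84 (standard error 0.41, limma adjusted p = 0.0506). For miR-125a-5p they were 12.83, 12.48 and 12.96 against 14.17, 14.10 and 13.83, a difference of -1.28 (standard error 0.19, limma adjusted p = 0.0557). Lung went the other way for miR-125a-5p without overlap, with 16680 to 27320 RPM at high altitude against 12420 to 15030 RPM, while the other 5 tissues were lower without overlap. Both are arms of the miR-99, miR-100 and miR-125 family, whose genes lie in clusters with let-7 genes. The remaining one, miR-221-3p, is an endothelial miRNA, and its goat means of 0.00, 0.00 and 0.00 against 1.14, 1.27 and 1.18 look replicated. All 18 high-altitude libraries of miR-221-3p were at 0, but so were 15 of the 18 low-altitude libraries. The 3 exceptions, 1 per low-altitude goat, were kidney of replicate 1 with 1128 counts, heart of replicate 2 with 2146 and liver of replicate 3 with 1125. The agreement of the low-altitude goats in miR-221-3p is therefore that of single libraries from 3 different tissues, and its opposite arm miR-221-5p, singled out after its values were seen, differed by 0.07 (standard error 0.26).

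Within this family, 0 of 12 measured members were called over all miRNAs, and 4 were called, all lower at high altitude, among miRNAs that averaged at least 1 RPM (18 called of 537) or at least 10 RPM (19 of 308). On counts summed per goat, edgeR called 0 members (3 called over all miRNAs) and DESeq2 called 1 (65 called). The median difference was -0.004 against -0.006 over all miRNAs. The goat means did not overlap for 4 members (33.33%, against 15.03% of all miRNAs), all lower at high altitude, and these were 4 of the 7 members of at least 10 RPM (57.14%, against 27.92%). Those 4 were the 5p arms of miR-99a, miR-100, miR-125a and miR-125b. Of them, miR-100-5p and miR-125b-5p were singled out after their values were seen, as were the 3p arms and let-7c-5p below. The goat means of miR-100-5p were 11.63, 10.89 and 12.44 in the high-altitude group against 14.29, 13.87 and 13.26, a difference of -2.15 (standard error 0.42, limma adjusted p = 0.0968). Those of miR-125b-5p were 12.49, 12.78 and 12.93 against 13.96, 14.03 and 13.65, a difference of -1.15 (limma adjusted p = 0.0713). Of the 3p arms, miR-100-3p and miR-125a-3p averaged only 0.783 and 3.32 RPM, where log2(RPM + 1) understates a fall. The 3p arms showed no such difference, with -0.08 for miR-99a-3p, 0.12 for miR-100-3p, 0.07 for miR-125a-3p and 0.70 for miR-125b-3p. Nor did let-7c-5p, whose gene lies beside that of miR-99a in the goat annotation ARS1.2, with a difference of -0.37 (limma adjusted p = 0.708). Among the members, miR-99b-5p went the other way by 2.78 (standard error 0.99, limma adjusted p = 0.422), with counts of 0 in 9 high-altitude and 14 low-altitude libraries and goat means that overlap.

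Among miRNAs higher at high altitude none was called, and the 6 with the lowest p are given as values. For miR-504-5p the goat means were 5.11, 5.05 and 4.85 in the high-altitude group against 3.55, 3.44 and 3.28, a difference of 1.58 (standard error 0.28, limma adjusted p = 0.0743). Its altitudes did not overlap in any of the 6 tissues. For miR-191-3p the means were 5.04, 5.24 and 5.18 against 3.69, 2.96 and 3.60, a difference of 1.74 (limma adjusted p = 0.0743), without overlap in 5 tissues. The endothelial miR-126-5p had 12.41, 12.20 and 12.39 against 11.29, 11.42 and 11.16, a difference of 1.04 (limma adjusted p = 0.0743). In spleen its difference was -0.14, and the altitudes overlap there. The values of miR-671-3p were 3.50, 3.23 and 3.37 against 2.23, 2.09 and 2.01, and those of miR-148a-3p were 13.87, 14.17 and 13.92 against 13.24, 13.21 and 13.31, with -0.06 in lung. Another entry also named miR-148a-3p, of the conserved class, went the other way. It differed by -0.99 at a mean of 816.9 RPM, against 25420 RPM for the entry above, and was singled out after its values were seen. The myeloid miR-223-3p had 6.23, 7.40 and 6.26 against 4.94, 2.43 and 2.37, a difference of 3.39 (standard error 0.72, limma adjusted p = 0.129), and was at 0 in 5 low-altitude libraries. The average of miR-223-3p was carried by liver and spleen, with 6.07 and 6.52, against 1.35 in heart and 1.36 in muscle, although its altitudes did not overlap in any tissue. Both larger values rest in part on low-altitude libraries at 0, with 0 to 68.5 RPM in liver and 0 to 310.4 RPM in spleen. High-altitude libraries had 175.7 to 415.7 RPM in liver and 474 to 864.4 RPM in spleen. These 6 differences were positive in every alternative in which they could be computed.

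The opposite arms again differed, in arms singled out after their values were seen. While miR-126-5p was higher at high altitude, miR-126-3p differed by -0.70 (standard error 0.36) and was lower on average in all 6 tissues. While miR-191-3p was higher, the far more abundant miR-191-5p differed by -0.88 (limma adjusted p = 0.366). For miR-143-5p, a smooth muscle miRNA, the altitudes did not overlap in any of the 6 tissues and the goat means were 4.41, 5.11 and 4.69 at high altitude against 6.62, 6.50 and 6.27, a difference of -1.73 (limma adjusted p = 0.0743), whereas miR-143-3p differed by 0.28. Over 81 precursors with both arms at a mean of at least 10 RPM, 50 had arms with differences of the same sign and 31 of opposite sign, and in 25 the arms differed by 1 or more on the log2 scale. Only 2 of the 31 had an unadjusted limma p under 0.05 in both arms. The 25 include precursors with an arm at 0 in many libraries, such as let-7a and miR-221.

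Of 50 measured arms of hypoxia-responsive miRNAs, 0 were called, 4 were higher and 5 lower without overlap (18.0%, against 15.03% of all miRNAs), and the median difference was 0.04. At 10 RPM or more their share without overlap was 20%, against 27.92% of all miRNAs of that level. The count of 0 is that of limma, whereas DESeq2 on counts summed per goat called 1 arm higher and 1 lower (65 called over all miRNAs). For miR-210-3p, the best known of them, the goat means were 1.25, 3.65 and 1.07 in the high-altitude group against 1.57, 0.00 and 2.54. The altitudes overlap, the difference was 0.62 (standard error 0.83, limma adjusted p = 0.744), and 9 high-altitude and 13 low-altitude libraries were at 0. The most abundant member, miR-26a-5p, differed by 0.17 (standard error 0.11).

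Among blood and vessel miRNAs, 0 of 4 erythroid members were called and 1 was lower without overlap (25%, against 27.92% of all miRNAs of at least 10 RPM, the level of all 4). Their median was -0.78, but 0.20 with edgeR and 0.34 with DESeq2 on counts summed per goat. The erythroid miR-486-5p had goat means of 11.18, 6.93 and 10.75 in the high-altitude group against 12.30, 12.43 and 12.36 (difference -2.75, limma adjusted p = 0.422), with 4 high-altitude libraries at 0 and no low-altitude library. Its direction depended on the tissue and the measure. In heart and muscle, where miR-486-5p was most abundant, high-altitude libraries averaged 29740 and 29680 RPM against 15060 and 16070 RPM, and with the log2 of the mean RPM over tissues its difference was 0.55. It was negative in 25 of 29 alternatives and 0.81 at the highest. Of 30 endothelial and angiogenic members 0 were called, 7 were higher and 5 lower without overlap (40%, against 15.03% of all miRNAs), and the median was -0.05, with 0.24 for the most abundant, miR-378-3p. At 10 RPM or more their share was also 40%, against 27.92%. Members called were 1 higher and 1 lower at 1 RPM or more (18 called of 537). They were 0 and 1 with edgeR on counts summed per goat (3 called over all miRNAs), and 4 and 2 with DESeq2 on these sums (65 called). Of 15 leukocyte members 0 were called, with 4 higher and 1 lower without overlap (33.33%, and 44.44% at 10 RPM or more) and a median of 0.03, and miR-142-5p, the most abundant, differed by 0.38. In this list 1 member was called higher at 10 RPM or more (19 called of 308). DESeq2 on counts summed per goat also called 1 higher (65 called over all miRNAs). The part of blood or leukocyte content in these values was not tested, and fewer cells of a type and less RNA per cell cannot be told apart in tissue samples. For miR-425-5p the goat means were 3.11, 5.08 and 4.30 against 1.30, 1.19 and 2.81 (difference 2.40, limma adjusted p = 0.195), and both arms of miR-425 were at 0 in the same 19 libraries (the 3p arm singled out after its values were seen).

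Among tissue miRNAs, 0 of 12 striated muscle members were called, and 3 were higher and 2 lower without overlap (41.67%, against 15.03% of all miRNAs, and 37.5% against 27.92% at 10 RPM or more). Of the 3 higher, miR-133b-5p and miR-133a-3p, the latter singled out after its values were seen, had equal counts in every library and are 1 measurement. The median of 0.21 was -0.27 with the log2 of the mean RPM and -0.25 with edgeR on counts summed per goat. DESeq2 on these sums called 2 striated muscle members, both lower at high altitude (65 called over all miRNAs). The most abundant, miR-133b-5p, differed by 0.65. This value came from tissues where it was low, with 2.19 in kidney, 1.24 in lung and 1.10 in liver against -0.43 in heart and -0.20 in muscle, and it was negative in 3 of 31 alternatives, -0.28 at the lowest. Of 8 smooth muscle members 0 were called and 3 were lower without overlap (37.5%, and 75% of the 4 at 10 RPM or more, median -0.19), with 3 called among miRNAs that averaged at least 10 RPM (19 called of 308) and 1 at 1 RPM or more (18 of 537). Smooth muscle members called were 1 without miRNAs of scattered zeros (15 called in all) and 2 with the log2 of the mean RPM (6 called in all). On counts summed per goat they were 0 with edgeR (3 called in all) and 3 with DESeq2 (65 called in all). Scattered zeros are a count of 0 beside 100 or more among the 3 libraries of a tissue and altitude. Both liver arms of miR-122 were uncalled (median 0.22), with 0.43 for miR-122-5p. By tissue miR-122-5p was higher in 3 and lower in 3, with -0.21 in liver against 2.53 in lung and 1.10 in heart, where it was low. Of 15 epithelial members 0 were called and 2 were lower without overlap (13.33%, median -0.07), with -0.07 for miR-141-3p. Of 10 mitochondrial and lipid metabolism members 0 were called and 1 was lower without overlap (10%, median 0.16). Of 15 let-7 members 0 were called and 2 were higher without overlap (13.33%, and 14.29% at 10 RPM or more, median 0.06), and let-7f-5p, the most abundant, differed by 0.98 (limma adjusted p = 0.428). At 10 RPM or more 1 let-7 member was called higher (19 called of 308), as was 1 without miRNAs of scattered zeros (15 called in all). DESeq2 on counts summed per goat called 2 let-7 members higher (65 called in all). The medians of all lists except smooth muscle and DLK1-DIO3 had the opposite sign in 2 to 11 of 28 alternatives.

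Of 102 DLK1-DIO3 arms 1 was called, miR-409-5p, while 8 were lower and 2 higher without overlap (9.804%, against 15.03% of all miRNAs, and 12.9% against 27.92% at 10 RPM or more, median -0.10), and miR-127-3p, the most abundant, differed by -0.56. DESeq2 on counts summed per goat called 1 arm higher and 3 lower (65 called over all miRNAs). The low-altitude muscle library of replicate 3 stood apart in this cluster. All 31 arms of at least 10 RPM were highest there among the 6 muscle libraries, miR-127-3p with 16550 RPM against 1716 and 2344 RPM in the other low-altitude muscles and miR-381-3p with 25950 against 403.5 and 583.7 RPM. The muscle miRNA miR-206-3p was also highest there, with 7759 against 136.9 and 294.4 RPM. Without this library the median difference of the 31 arms in muscle was -1.27 in place of -2.40, and 8 miRNAs, all lower at high altitude, had a shared difference in place of 3. The median of the 102 arms over the tissues was then -0.03 in place of -0.10. This alternative, and miR-381-3p and miR-206-3p as examples, were chosen after seeing the data.

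Whether the altitude difference depended on the tissue was tested within goats with a limma F test of 5 degrees of freedom. Over all 1391 miRNAs 32 were called (2.3%), but 16 of these averaged under 1 RPM, and on simulated data without any altitude difference the test also made calls among miRNAs near 0. This count is therefore not read as a finding. Among the 537 miRNAs with at least 1 RPM, where the test on simulated data made few such calls, 18 were called (3.35%), and 12 of 308 were called at 10 RPM or more. The simulation did not model scattered zeros and does not cover calls that rest on them. Of the 18, miR-548q-3p was at 0 in 32 libraries and miR-2474-3p in 25 (chosen after their values were seen). The calls at both levels included miR-409-5p, miR-99a-5p, miR-100-5p, miR-125a-5p and miR-125b-5p, the last with -2.34 in spleen and 0.31 in lung. For miR-99a-5p the difference was -4.35 in liver, -4.14 in spleen and -0.08 in lung. The 5 lowest p over all miRNAs were those of miR-509-3p, miR-208a-3p, miR-542-3p, miR-409-5p and miR-48-3p, which has no match in miRBase. The cardiac miR-208a-3p differed by -4.44 in heart and by -0.40 to 0.00 in the other tissues. For miR-542-3p the difference was -3.60 in lung and 1.39 in spleen. The low-level miR-48-3p stood at 22.9 to 40.1 RPM in the high-altitude livers and at 0 in the low-altitude livers. In lung it went the other way, with all high-altitude lungs at 0 and 1 low-altitude lung at 24.15 RPM.

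**Figure D3:**
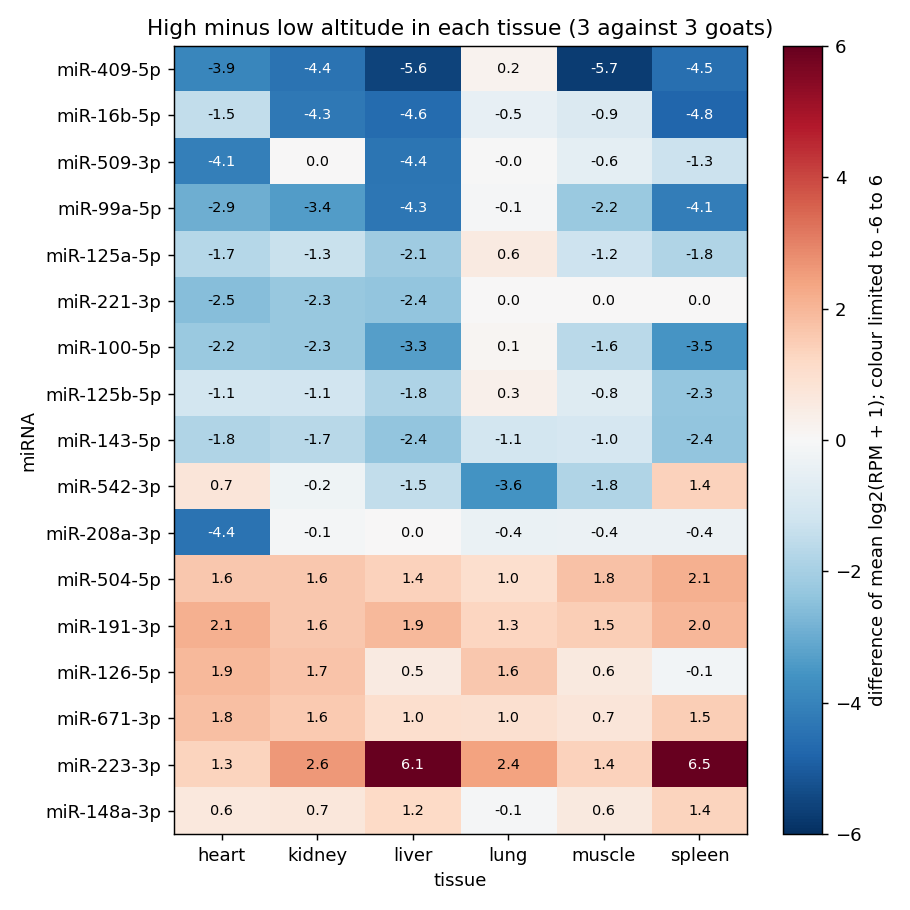
Difference of the mean log2(RPM + 1) between 3 high-altitude and 3 low-altitude goats in each of 6 tissues (columns) for 17 miRNAs (rows). Lung stands at 0.2 for miR-409-5p, where the other tissues range from -5.7 to -3.9.

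Of the 233 miRNAs with a mean of at least 10 RPM without scattered zeros, 71 had goat means that did not overlap. For 38 of the 71 the tissue means went the same way in all 6 tissues, 25 lower and 13 higher at high altitude. Lung shared the direction for 49 of the 71, against 65 to 70 in each other tissue. These directions follow in part from the choice of miRNAs by their averages and are a description.

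The labelled tissues carried their defining miRNAs. Mean RPM of miR-208b-3p, miR-122-5p, miR-34c-5p, miR-142-3p and miR-206-3p was highest in heart, liver, lung, spleen and muscle respectively, and miR-10b-5p was highest in kidney, whereas the kidney marker miR-194-5p was highest in liver. Among the fixed markers miR-449a-5p, miR-192-5p and miR-451-5p were not analysed here. Libraries of the same number and altitude from different tissues had a mean Pearson r of 0.18 between their deviations from the group means, over 233 miRNAs in 90 pairs. By goat it ran from 0.07 to 0.32. Libraries of the same altitude but different numbers, also from different tissues, had -0.09 in 180 pairs. Deviations from a group mean offset each other, so the values for same and different numbers are linked. MiRNAs are not independent replicates, and these values are a description without a test.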

How the data were processed

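The authors removed low-quality and adaptor reads (CASAVA 1.8 is named in the submitters' processing notes), aligned the rest to the ARS1 assembly by Bowtie without mismatches, and detected and counted miRNAs by miRDeep2, with names from release 21 of miRBase. Each deposited value is a raw whole-number count of 1 of 1391 miRNAs in 1 library: 447 known, 586 conserved and 358 without a match in miRBase.

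Counts were scaled by the library total to RPM, and log2(RPM + 1) was averaged over the 6 tissues of each goat and compared with limma 3.58.1 (trended empirical Bayes) in R 4.3.3. A difference on this scale understates the change of low miRNAs. The design used limma on goat means in place of a count model because the measure is an average of log values; edgeR 4.0.16 and DESeq2 1.42.0 were alternatives, with other scalings, pseudocounts, filters, averages and variance models, each tissue or goat left out and the replicate number as a block.

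Named miRNAs were those called, those of lowest p up to 6 per direction, miR-99b-5p, miR-425-5p, miR-210-3p, miR-221-3p and miR-409-5p, the called and the most abundant member of each of 12 lists, and the 5 lowest p of the tissue test. Others, mostly opposite arms and members of the same family, were singled out after their values were seen and are marked so. The members and lists were chosen with earlier results of these data known.

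The fits were tested on simulated data. In these data the shared test recovered known changes when these lay outside the most abundant miRNAs and made no calls without any change. Scattered zeros were not modelled, so calls that rest in part on them, such as that of miR-16b-5p, are not covered. How often the shared test makes calls among real goats without any altitude difference was not tested. A first version of this test, with the most abundant miRNAs changed too, failed under scaling by the library total: most calls were unchanged miRNAs, since a change of an abundant miRNA shifts all others. The simulation was then narrowed and the scaling of the main fit was kept, so the passing test does not cover that case. TMM and DESeq2 size factors held up better there and were run as alternatives. The test of tissue by altitude made calls without any change among miRNAs near 0.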

Additional observations from a re-analysis of the deposited data

Results flagged for a closer look

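The altitude difference differed between tissues, by the limma F test among the 537 miRNAs with a mean of at least 1 RPM, for 18 miRNAs. This filter was preferred to the full table after the test over all miRNAs was seen to make calls near 0 on simulated data. The adjusted p was 9.62e-06 for miR-509-3p, 0.000104 for miR-208a-3p, 0.000146 for miR-542-3p, 0.000386 for miR-409-5p and 0.00067 for miR-48-3p, which has no match in miRBase. In the miR-99, miR-100 and miR-125 family it was 0.00215 for miR-125a-5p, 0.00506 for both miR-100-5p and miR-99a-5p, and 0.0133 for miR-125b-5p.

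The other adjusted p from limma were 0.00456 for miR-2474-3p, 0.00506 for miR-758-3p, 0.00746 for miR-200c-3p, 0.0102 for miR-96-5p, 0.0185 for miR-143-3p, 0.0276 for both miR-3958-3p and miR-548q-3p, 0.039 for miR-1304-5p and 0.0455 for miR-183-5p, all but miR-143-3p chosen after their values were seen. Of these, miR-548q-3p was at 0 in 32 libraries and differed by -6.21 in lung, and miR-3958-3p and miR-758-3p, of the DLK1-DIO3 cluster, differed by -3.18 and -3.09 in muscle. Without the low-altitude muscle library of replicate 3, where both were highest among the muscles, these were -1.89 and -2.62. The test at 1 RPM or more then called 17 miRNAs, 16 of them the same (chosen after seeing the data), with adjusted p of 0.0723 for miR-3958-3p, 0.0565 for miR-183-5p and 0.0353 for miR-758-3p. The difference of miR-200c-3p was -2.33 in kidney and 1.04 in lung, and that of miR-143-3p was 1.25 in heart and -0.66 in lung.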

How the results depend on the processing

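The count of 3 called miRNAs was also 3, the same miRNAs, with TMM, DESeq2 size factors or a minimum difference of 1.5. It was 3 with edgeR on counts summed per goat, of which only 1, miR-409-5p, was the same. It was 2 with a pseudocount of 10, again with only miR-409-5p the same. It was 5 with a pseudocount of 0.25, 18 and 19 with a mean of at least 1 and 10 RPM, 15 without scattered zeros, 6 with identical miRNAs once, 1 with arms summed, 1 with the median of the tissues, 6 with the log2 of the mean RPM, 16 without trend and 15 at an adjusted p under 0.1. Without heart or kidney it was 1, without liver 5, without muscle 6 and without spleen 0. It was 70 with goat as a random block, 89 with edgeR over 36 libraries taken as independent, 65 with DESeq2 on summed counts, and 13 without lung and scattered zeros (chosen after seeing the data). Without the low-altitude muscle library of replicate 3 it was 8 (chosen after seeing the data). Without 1 goat it ran from 0 to 1. Fewer miRNAs tested lighten the adjustment; otherwise the cause was not tested.

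With the replicate block the count was 6. The numbers do not pair the altitudes: correlations of same-numbered goats' deviations were 0.20, -0.19 and -0.22, and 0 of 3 high-altitude goats correlated best with their own number.

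Non-overlapping miRNAs, 209, were 132 and 86 at a mean of at least 1 and 10 RPM, 132 with arms summed and 119 with the median of tissues. They were 285 to 385 without 1 goat, where fewer goats overlap less often by design. With DESeq2 size factors 128 were higher and 118 lower, against 89 and 120. These factors moved the median difference of miRNAs of at least 10 RPM by 0.12.

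The tissue-dependent count, 32, was 18 and 12 at a mean of at least 1 and 10 RPM, 17 without lung, 7 with 10 RPM in every tissue (chosen after seeing the data) and 31 to 59 without 1 goat. The variance share ran from 35.9% to 47.8% without 1 goat, where fewer goats raise the share by design.

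The striated muscle median, 0.21, was -0.27 with the log2 of the mean RPM and -0.25 with edgeR on summed counts, which also gave -0.61 for epithelial miRNAs. The smooth muscle median was -1.05 at either minimum RPM, -0.49 with the log2 of the mean RPM, -1.31 and -0.79 with edgeR on summed counts and on 36 libraries, and -1.165 with DESeq2. Members called rose from 0 to 3 for smooth muscle and from 0 to 4 for the miR-99, miR-100 and miR-125 family at 10 RPM or more, with goat as a random block and with edgeR on 36 libraries. Calls over all miRNAs tested also rose in these settings, from 3 to 19, 70 and 89 respectively. At 10 RPM or more the miR-99, miR-100 and miR-125 median was -1.15 and the DLK1-DIO3 median -0.48, the latter being -0.69 with edgeR and -0.58 with DESeq2 on summed counts.

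Among single miRNAs, miR-16b-5p was past the threshold in 13 of 30 alternatives, miR-509-3p in 16 of 30 and miR-99a-5p in 11 of 31. Their differences were negative in each.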

Other observations

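Some miRNAs were at 0 in whole libraries while the remaining libraries had large counts, in some precursors in both arms together and in others in 1 arm alone. Of 23 precursors with both arms at a mean of at least 10 RPM and such zeros, 8 had their arms at 0 in the same libraries, 2 partly together and 13 never together. Both arms of miR-30c were at 0 in the same 14 libraries and both arms of miR-144 in the same 16, whereas miR-221-3p was at 0 in 33 libraries and miR-221-5p in none. The cause was not tested. Of the 308 miRNAs with a mean of at least 10 RPM, 75 had a count of 0 beside 100 or more among the 3 libraries of a tissue and altitude. These miRNAs were singled out after their values were seen.

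The counts of let-7a-5p and let-7a-3p exchanged places between libraries, a pair singled out after its values were seen, with let-7a-5p at 0 in 16 libraries and let-7a-3p in none. In lung of high-altitude replicate 1, let-7a-5p was at 0 and let-7a-3p had 87808 counts, while in heart of the same goat let-7a-5p had 21340 counts and let-7a-3p had 59. The sequence that the primer list of the study gives under the name let-7a-3p begins with the let-7 seed, shown in capitals (bases 2 to 8).
let-7a-3p: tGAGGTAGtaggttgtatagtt

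In a principal components analysis of the tissue-centred values of the 233 miRNAs with a mean of at least 10 RPM and without such zeros, chosen after seeing the data, the first component held 23.12% of the variance and did not divide the altitudes. All 6 libraries of high-altitude goat 2 lay at 4.33 to 12.85 on it, all 6 of low-altitude goat 1 at -12.01 to -0.80, and the other 4 goats had libraries on both sides of 0. Without high-altitude goat 2, 385 miRNAs had goat means that did not overlap, against 285 to 331 when another goat was left out instead. The count of 209 is no comparator here, since fewer goats overlap less often by design. The tissue test over all miRNAs, not read as a finding, called 59, against 31 to 47 when another goat was left out. The second component held 22.1%. It was above 0 in 17 of 18 high-altitude libraries and below 0 in 18 of 18 low-altitude libraries, the exception being lung of high-altitude replicate 2 at -0.14. Muscle of low-altitude replicate 3 was at -12.19, and on the third component at 12.67, where no other library was above 6.16. The miRNAs with the largest weights at the low-altitude end of the second component were miR-409-5p, miR-99a-5p and miR-100-5p.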
